A study of Mus musculus with 12 samples.

Results

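The genes described here are 7 secretory products of Paneth cells, namely Mptx2, Defa21, Defa24, Ang4, Mmp7, Lyz1 and Itln1, measured in the mouse jejunum by one-colour microarray. They were taken by gene symbol, as the probes whose RefSeq accession belongs to one of the 7 symbols. This gave 7 probes, 1 for each gene, of 56605 probes that stand for 46522 genes or unnamed transcripts on the array. In RefSeq, Mptx2 and Itln1 lie on chromosome 1, Defa21 and Defa24 on chromosome 8, Mmp7 on chromosome 9, Lyz1 on chromosome 10 and Ang4 on chromosome 14. All 7 were well above background on all 12 arrays, so all 7 entered the tests, among 27565 genes that did.

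The study asked how the jejunum responds to IIAEK, a peptide of 5 amino acids known for lowering cholesterol in rodents, when intestinal alkaline phosphatase is missing. The 4 groups of male mice were IAP knockout (IAP-KO, Akp3-/-) on IIAEK, IAP knockout on vehicle, wild type on IIAEK and wild type on vehicle, with n = 3 arrays in each. All mice were 7 weeks old at the start and were dosed by mouth daily for 14 days, either with 600 mg of IIAEK per kg or with the vehicle alone, which all 4 groups received (carboxymethylcellulose sodium salt in solution, 5 g/L). They were fasted for 8 h before the jejunum was taken. The labels disagree on duration, since 1 field of the IIAEK samples reads 14 weeks, and the 14 days of the titles and the protocol are used. The strain background and how the allele was made are not given in the sources used here. Levels below are log2 of the processed signal relative to the 75th percentile of the same array, so a level of 1 is a signal 1 doubling above that percentile.

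Paneth cells sit at the base of the crypts of the small intestine, beside the stem cells, and release granules of antimicrobial proteins into the lumen. In the mouse, alpha-defensins (cryptdins) are stored as precursors that the metalloproteinase matrilysin, the product of Mmp7, cuts into active peptides. The granules also hold lysozyme P (Lyz1), which cleaves bacterial cell wall glycan, and angiogenin 4 (Ang4), a ribonuclease with microbicidal activity. Mptx2 encodes a secreted pentraxin of Paneth cells, and Itln1 encodes intelectin, a lectin that binds microbial sugars and is made by Paneth and goblet cells.

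Promoter windows are shown because Wnt signalling through TCF factors is known to drive defensin and Mmp7 expression in mouse Paneth cells. The windows are RefSeq's, on assembly GRCm38.p6, each 300 bases long with the start site at position 0, and 6 of the 7 genes have one in the table used. The letters ATCAAAG (a TCF-type motif), CAGCTG (an E-box) and TATAAA were searched on both strands, and matches are in capitals. Those in the windows below do not overlap one another. The Defa21 window on chr8:21025295-21025594, plus strand, is:
Defa21: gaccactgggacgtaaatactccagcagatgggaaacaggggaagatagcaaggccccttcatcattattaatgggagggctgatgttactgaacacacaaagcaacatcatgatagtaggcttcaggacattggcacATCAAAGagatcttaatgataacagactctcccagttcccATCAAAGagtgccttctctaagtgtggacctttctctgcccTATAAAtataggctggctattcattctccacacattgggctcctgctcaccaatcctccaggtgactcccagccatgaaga
The Mmp7 window on chr9:7691840-7692139, plus strand, is:
Mmp7: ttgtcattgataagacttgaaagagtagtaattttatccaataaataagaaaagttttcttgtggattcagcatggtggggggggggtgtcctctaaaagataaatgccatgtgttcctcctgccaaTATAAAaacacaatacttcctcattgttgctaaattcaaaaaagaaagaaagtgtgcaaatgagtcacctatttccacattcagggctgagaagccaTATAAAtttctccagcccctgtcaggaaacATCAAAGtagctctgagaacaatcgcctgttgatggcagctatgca
The Mptx2 window on chr1:173277707-173278006, minus strand, and that of its paralogue Mptx1 on chr1:174330268-174330567, plus strand, are shown because their probes gave the same ranking of the arrays:
Mptx2: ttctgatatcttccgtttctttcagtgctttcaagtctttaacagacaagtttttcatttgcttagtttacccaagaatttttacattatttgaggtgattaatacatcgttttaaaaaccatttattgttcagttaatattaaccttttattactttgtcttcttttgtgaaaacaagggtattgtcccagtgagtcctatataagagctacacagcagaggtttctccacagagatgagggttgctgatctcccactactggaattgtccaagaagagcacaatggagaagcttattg
Mptx1: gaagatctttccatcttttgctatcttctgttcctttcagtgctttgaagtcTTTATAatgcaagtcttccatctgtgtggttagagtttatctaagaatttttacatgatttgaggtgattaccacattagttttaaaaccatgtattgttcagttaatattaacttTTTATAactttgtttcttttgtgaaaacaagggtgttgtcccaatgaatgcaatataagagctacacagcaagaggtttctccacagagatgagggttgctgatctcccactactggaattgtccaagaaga

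ATCAAAG was found in the windows of 2 of the 6 members, Defa21 (positions -112 and -72) and Mmp7 (position 4), and in 3.76% of 27025 windows of the same length over all genes. TATAAA was found in the same 2 members of 6, against 14.2% of all windows. CAGCTG was found in 1 of 6, Lyz1, against 16.1%. The windows of Mptx2, Ang4 and Itln1 held none of these motifs, and those of Ang4, Lyz1 and Itln1 are not printed. The Mptx2 and Mptx1 windows were identical at 84% of positions after global alignment, where the unrelated pair Mptx2 and Lyz1 reached 59.3% by the same alignment. These are letter matches in a short window and were not tested as binding sites.

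The labels were checked first. The brighter probe for Akp3, the disrupted gene, was well above background on 0 of 3 arrays in knockout IIAEK and 0 of 3 in knockout vehicle, against 3 of 3 in wild-type IIAEK and 2 of 3 in wild-type vehicle. The second Akp3 probe was well above background on 0 of 3 arrays in each knockout group, against 2 of 3 in wild-type IIAEK and 0 of 3 in wild-type vehicle, so on vehicle it did not separate the genotypes. Between 59.99% and 67.1% of spots on an array were well above background, and no spot was saturated. The arrays lay on 2 slides. Slide 1 held replicates 1 and 2 of both knockout groups and replicate 1 of both wild-type groups, and slide 2 held the others. 2 arrays stood apart in the mean deviation of the 7 genes from their 12-array means, knockout IIAEK replicate 3 at 1.11 and knockout vehicle replicate 3 at -0.63, both on slide 2. The other 10 arrays lay between -0.35 and 0.29. In bulk tissue, a change in the number of Paneth cells and a change in RNA per cell cannot be told apart.

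**Figure D1:**
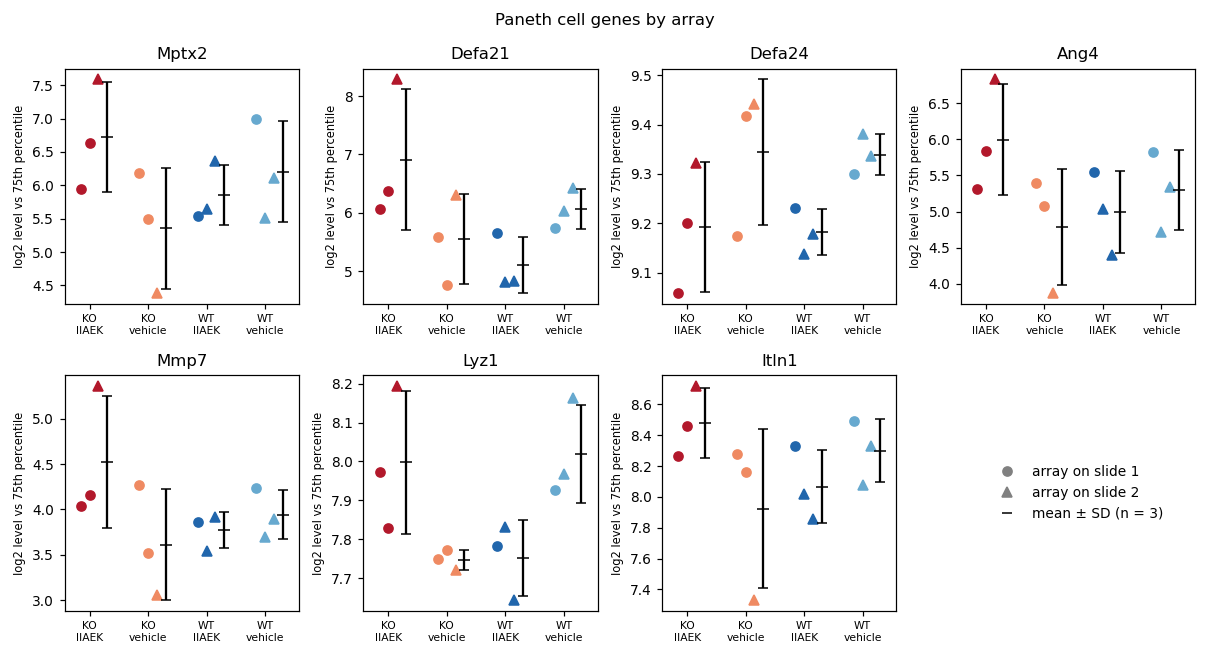
Level of each of the 7 genes on every array (log2 relative to the array's 75th percentile), by group from knockout IIAEK on the left to wild-type vehicle on the right. Points are arrays, circles on slide 1 and triangles on slide 2, and bars are the mean ± SD over 3 arrays. Knockout IIAEK replicate 3 is the highest array for 6 of the 7 genes, all but Defa24, and knockout vehicle replicate 3 is the lowest for Mptx2, Ang4, Mmp7 and Itln1.

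Of the 2 alpha-defensins, Defa21 was at 6.06, 6.38 and 8.29 on the knockout IIAEK arrays, against 5.59, 4.75 and 6.31 on the knockout vehicle arrays. In wild type it was at 5.66, 4.81 and 4.83 on IIAEK, against 5.74, 6.02 and 6.43 on vehicle. The highest array is a knockout IIAEK array, the knockout groups overlap, and all 3 wild-type IIAEK arrays lie below all 3 wild-type vehicle arrays. The group means were 6.91 ± 1.21 in knockout IIAEK, 5.55 ± 0.78 in knockout vehicle, 5.10 ± 0.48 in wild-type IIAEK and 6.07 ± 0.35 in wild-type vehicle (SD, n = 3 each). In order of level, knockout IIAEK is followed by wild-type vehicle, knockout vehicle and wild-type IIAEK, and arrays of each neighbouring pair overlap.

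Defa24, the other alpha-defensin, was at 9.06, 9.20 and 9.32 in knockout IIAEK, against 9.17, 9.42 and 9.44 in knockout vehicle. Wild-type arrays were at 9.23, 9.14 and 9.18 on IIAEK, against 9.30, 9.38 and 9.34 on vehicle. It was the flattest of the 7, with all 12 arrays within 0.38 of each other, a 1.30-fold span, whereas Defa21 spanned 3.54, or 11.6-fold. The unscaled Defa24 signal was between 343699 and 459722, and the scanner files give saturation at 778276 or above.

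Mmp7, the enzyme that matures the defensins, was at 4.04, 4.16 and 5.36 in knockout IIAEK, against 4.27, 3.52 and 3.05 in knockout vehicle. Wild-type arrays were at 3.86, 3.55 and 3.91 on IIAEK, against 4.23, 3.70 and 3.89 on vehicle. The wild-type arrays are close together and overlap, and the knockout groups overlap through vehicle replicate 1. Means were 4.52 ± 0.73, 3.61 ± 0.61, 3.77 ± 0.20 and 3.94 ± 0.27 in knockout IIAEK, knockout vehicle, wild-type IIAEK and wild-type vehicle (SD, n = 3 each).

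Lyz1 was at 7.97, 7.83 and 8.19 in knockout IIAEK, against 7.75, 7.77 and 7.72 in knockout vehicle. In wild type it was at 7.78, 7.83 and 7.64 on IIAEK, against 7.93, 7.97 and 8.16 on vehicle. The direction is opposite in the 2 genotypes without overlap: every IIAEK array lies above every vehicle array in knockout and below every one in wild type. The same holds for 294 of all genes tested (1.07%). Lyz1 averaged 8.00 ± 0.18 in knockout IIAEK, 7.75 ± 0.026 in knockout vehicle, 7.75 ± 0.098 in wild-type IIAEK and 8.02 ± 0.13 in wild-type vehicle (SD, n = 3 each), so 2 groups sit near 8 and 2 near 7.75.

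Ang4 was at 5.31, 5.84 and 6.83 in knockout IIAEK, against 5.39, 5.08 and 3.87 in knockout vehicle. The wild-type values were 5.54, 5.04 and 4.40 on IIAEK, against 5.83, 4.72 and 5.34 on vehicle. Both pairs overlap, and the 2 extreme values are replicate 3 of each knockout group. Its means were 5.99 ± 0.77, 4.78 ± 0.80, 5.00 ± 0.57 and 5.30 ± 0.55 in knockout IIAEK, knockout vehicle, wild-type IIAEK and wild-type vehicle (SD, n = 3 each).

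The pentraxin gene Mptx2 was at 5.95, 6.63 and 7.59 in knockout IIAEK, against 6.18, 5.50 and 4.39 in knockout vehicle. In wild type it was at 5.54, 5.64 and 6.37 on IIAEK, against 7.0, 5.50 and 6.11 on vehicle. The knockout groups overlap through vehicle replicate 1, and its 12 arrays span 9.20-fold. Mean levels were 6.72 ± 0.82 in knockout IIAEK, 5.36 ± 0.91 in knockout vehicle, 5.85 ± 0.45 in wild-type IIAEK and 6.20 ± 0.75 in wild-type vehicle (SD, n = 3 each).

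The lectin gene Itln1 was at 8.26, 8.46 and 8.72 in knockout IIAEK, against 8.28, 8.16 and 7.33 in knockout vehicle. The wild-type values were 8.33, 8.02 and 7.86 on IIAEK, against 8.49, 8.08 and 8.33 on vehicle. Knockout vehicle replicate 1 exceeds 1 knockout IIAEK array, so the groups overlap, and the wild-type groups do too. Means were 8.48 ± 0.23, 7.92 ± 0.52, 8.07 ± 0.24 and 8.30 ± 0.21 in knockout IIAEK, knockout vehicle, wild-type IIAEK and wild-type vehicle (SD, n = 3 each). Itln1, Mptx2, Ang4 and Mmp7 share 1 order of group means, with knockout IIAEK highest, then wild-type vehicle, wild-type IIAEK and knockout vehicle, and in all 4 genes the arrays of each neighbouring pair overlap.

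IIAEK in the knockout was the comparison with the largest mean differences for 4 of the 7 genes among the simple contrasts. Relative to vehicle, the mean difference was 1.37 (log2, 2.58-fold) for Mptx2, 1.36 (2.57-fold) for Defa21, 1.21 (2.32-fold) for Ang4, 0.91 (1.88-fold) for Mmp7, 0.56 for Itln1, 0.25 for Lyz1 and -0.15 for Defa24. 6 of 7 lay above 0, against 51.1% of all genes, and the median of the 7 was 0.91 where that of all genes was 0.0060. None passed in limma's test after Benjamini-Hochberg adjustment over all genes (adjusted p = 0.910 for all 7, as for 0% of 27565 genes called). At an unadjusted p below 0.05, 5 of the 7 were higher in limma (Mptx2, Ang4, Defa21, Mmp7 and Itln1), against 1.88% of all genes. Lyz1 alone had knockout IIAEK arrays entirely above the vehicle arrays, as did 4.02% of all genes.

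The size of that difference rested on the arrays numbered 3. The median of the 7 differences was 0.21 on slide 1 (2 arrays against 2) and 1.98 on slide 2 (1 array against 1). Mptx2 differed by 0.45 on slide 1 and by 3.20 on slide 2, Ang4 by 0.34 and 2.96, Mmp7 by 0.21 and 2.30, and Itln1 by 0.14 and 1.39. Defa21 differed by 1.05 and 1.98, and Lyz1 by 0.14 and 0.47. The sign was thus the same on both slides for 6 genes above 0 and for Defa24 below it (-0.17 and -0.12), while the size differed several-fold for most. Leaving out knockout IIAEK replicate 3 gave a median of 0.49, and leaving out replicate 3 of both knockout groups leaves the slide 1 arrays and the same 0.21. As a fixed effect, slide 2 minus slide 1 was between -0.43 for Ang4 and 0.72 for Defa21 and passed for none of the 7, though it passed for 241 of all genes.

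In wild type, all 7 genes lay lower on IIAEK than on vehicle, where 43% of all genes lay above 0, with differences between -0.96 and -0.16 and a median of -0.27 against -0.062 for all genes. Defa21 had the largest difference, -0.96 (SE 0.54), or 0.512 of its vehicle level, with limma's adjusted p = 0.424. Lyz1 differed by -0.27 (SE 0.13; adjusted p = 0.399), Mptx2 by -0.35, Ang4 by -0.30, Itln1 by -0.23, Mmp7 by -0.17 and Defa24 by -0.16. No member was called, as for 0% of all genes, and 0 of the 7 had an unadjusted p below 0.05, against 7.18% of all genes in this direction. The arrays of Defa21, Defa24 and Lyz1 did not overlap, 3 of 7 genes, against 14.7% of all genes that lay entirely lower. On slides 1 and 2 the median was -0.16 and -0.27, and Mptx2 changed sign between them (-1.46 and 0.20).

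**Figure D2:**
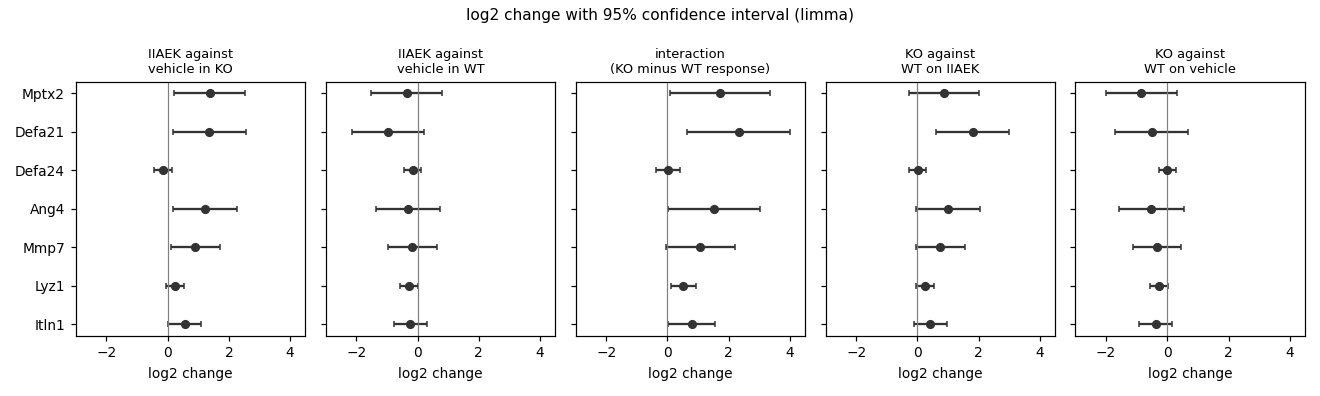
Differences of the 7 genes in 5 comparisons, as log2 changes with 95% confidence intervals from limma. Points for Mptx2, Defa21, Ang4 and Mmp7 lie to the right of 0 for IIAEK in the knockout and to the left for IIAEK in wild type, and Defa24 stays near 0 in each panel.

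The difference between the 2 responses (the interaction, knockout response minus wild-type response) was above 0 for 7 of 7 genes, as for 54.5% of all genes, with a median of 1.08 against 0.057. It was 2.33 (SE 0.77, 95% interval 0.64 to 4.01) for Defa21, 1.72 for Mptx2, 1.52 for Ang4, 1.08 for Mmp7, 0.79 for Itln1, 0.52 for Lyz1 (SE 0.19) and 0.0060 for Defa24. 5 of the 7 had an unadjusted p below 0.05, against 8.96% of all genes with a positive interaction (Defa21, Lyz1, Mptx2, Itln1 and Ang4, by limma). None passed adjustment, and 0% of all genes did; adjusted p was between 0.311 for Defa21 and 0.343 for Mmp7 among the 6 genes other than Defa24. Slide 1 alone gave a median of 0.58 and slide 2 alone 2.37, and the arrays other than the 2 that stood apart gave 0.41. Defa21 had the largest interaction of the 7 on slide 2 (3.39), and Mptx2 on slide 1 (1.91, against 1.14 for Defa21).

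On vehicle, 6 of the 7 genes lay lower in knockout than in wild type, where 45.5% of all genes lay above 0, with a median of -0.38 against -0.034 for all genes. Mptx2 differed by -0.85, Ang4 and Defa21 by -0.52, Itln1 by -0.38, Mmp7 by -0.33 and Lyz1 by -0.27 (adjusted p = 0.457 in limma), and Defa24 by 0.0049. No member and 0% of all genes were called in limma, and 0 of the 7 had an unadjusted p below 0.05, against 11.4% of all genes. Lyz1 was the 1 member whose knockout arrays all lay below the wild-type arrays, as 13.4% of all genes did. The median without knockout vehicle replicate 3 was -0.080, so the size of the median also rested on that array. This was so for Mptx2, Ang4, Mmp7 and Itln1, but Defa21 went the other way, to -0.90 without it. Lyz1 stayed between -0.32 and -0.20 whichever array was left out.

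On IIAEK, all 7 lay higher in knockout than in wild type, 53% of all genes being above 0, with a median of 0.75 against 0.021. The largest difference was that of Defa21, 1.81 (3.50-fold, SE 0.54), with an adjusted p of 0.648 in limma, and its knockout arrays all lay above its wild-type arrays. Mmp7 (0.75) was the other member without overlap, which makes 2 of 7 against 5.51% of all genes. Ang4 differed by 1.0, Mptx2 by 0.87, Itln1 by 0.41, Lyz1 by 0.25 and Defa24 by 0.011. No member and 0% of all genes passed, and Defa21 was the 1 member with an unadjusted p below 0.05, against 4.34% of all genes that were higher. Without knockout IIAEK replicate 3, Defa21 differed by 1.12 and the median of the 7 was 0.33. This comparison, the response in the knockout and the interaction all use the same knockout IIAEK arrays and are not independent of each other.

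Averaged over both treatments, the 7 genes differed little between the genotypes, with a median of 0.019 and a range from -0.014 (Lyz1) to 0.65 (Defa21, adjusted p = 0.967 in limma). No member was among the genes called, which were 1 of 27565 (0.00363%). Averaged over both genotypes, IIAEK minus vehicle had a median of 0.20, from -0.15 for Defa24 to 0.51 for Mptx2 (adjusted p = 0.962 in limma), with 0% of all genes called.

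Across the 12 arrays the members did not vary as 1 block. Mptx2, Ang4, Mmp7 and Itln1 ran together, with Pearson r between 0.82 and 0.95 in their 6 pairs (Spearman's rho 0.70 to 0.97), and r between 0.45 and 0.96 over the 10 arrays other than the 2 that stood apart. Ang4 and Itln1 were the closest pair (r = 0.95, rho = 0.97, and r = 0.96 over 10 arrays). Mptx2 and Mmp7 followed (r = 0.91, rho = 0.91, and r = 0.80 over 10 arrays). Defa21 went most with Lyz1 (r = 0.73, and 0.71 over 10 arrays) and less with Mptx2 (r = 0.44, and 0.30 over 10 arrays). With Itln1 it had r = 0.42, but 0.68 over the 10 arrays. Defa24 had r between -0.28 and 0.22 with the other 6. The points share groups, slides and arrays, and these coefficients are a description over 21 pairs with no test.

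**Figure D3:**
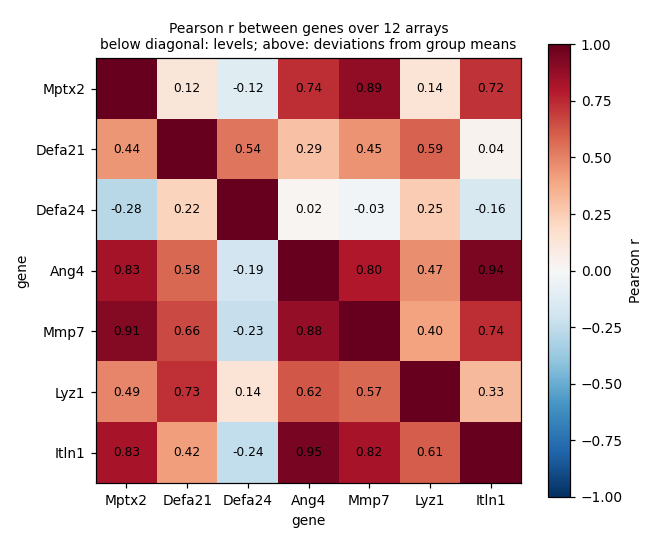
Pearson r between the levels of each pair of the 7 genes over 12 arrays (below the diagonal) and between their deviations from group means (above it). Mptx2, Ang4, Mmp7 and Itln1 form the block of high values, and Defa24 stays between -0.28 and 0.22 below the diagonal.

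Probes of related genes were set beside the members, since the near-identical copies in these families can bind each other's probes. The Mptx1 probe ranked the 12 arrays exactly as the Mptx2 probe did (r = 0.998, rho = 1) and differed by 1.39 for IIAEK in the knockout (SE 0.56). The Ang6, Ang2 and Ang probes went with the Ang4 probe at r = 0.998, 0.994 and 0.964. Their differences for IIAEK in the knockout were 1.16, 1.19 and 1.04, against 1.21 for Ang4. The sequences of the probes were not used here, and how far each reads its paralogues was not tested. Values of Mptx2 and Ang4 may therefore hold signal of their copies. The same limit holds for Defa21 and Defa24, which ran with a Defa2 probe (r = 0.960) and a Defa23 probe (r = 0.908). Lyz2, the lysozyme of macrophages and other myeloid cells, differed by 0.49 in the knockout and by -0.30 in wild type, signs it shares with Lyz1. Unlike Lyz1, its arrays overlapped in both genotypes. Lyz2 was at 0.11, 0.49 and 1.88 in knockout IIAEK, against 0.59, 0.48 and -0.060 in knockout vehicle, so its difference there rested on the replicate 3 arrays.

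17 other probes for 13 further alpha-defensin genes were above background, and their differences in the knockout filled the range between Defa24 and Defa21. For IIAEK in the knockout, 12 of the 17 lay above 0 with a median of 0.12, from -0.054 for a Defa23 probe to 1.24 for a Defa2 probe. For IIAEK in wild type, 0 of 17 lay above 0 and the median was -0.21. On IIAEK, 17 of 17 lay higher in knockout than in wild type, with a median of 0.11. The Defa2 probe with the 1.24 difference ran with Defa21 (r = 0.960, rho = 0.944) and spanned 3.94 over the 12 arrays. A second Defa2 probe spanned much less, from 8.66 to 9.08, and differed by 0.084 in the knockout, so probes for the same gene disagreed.

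The 19 alpha-defensin probes, Defa21 and Defa24 included, spanned between 0.30 and 3.94 over the 12 arrays, with a median span of 0.58. The 12 probes with an unscaled signal over 300000 on some array, Defa24 among them, had a median span of 0.41. Their spans reached 3.94, that of the first Defa2 probe. The other 7 probes, Defa21 among them, had a median span of 1.45. A narrow span was thus common among the brightest defensin probes, and the part of signal level in it was not tested.

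The wider list of Paneth cell products and factors, 30 tested genes of 32 on the array out of 54 listed, lay in the same directions with smaller medians. It includes the 13 further alpha-defensin genes and Mptx1, Ang, Ang2 and Ang6, whose probes may share signal with the members. Its counts are therefore not independent of the members. The list also holds Lyz2, described above as a myeloid lysozyme, and Clps. Clps was its highest gene for IIAEK in wild type (1.12) and its lowest for the interaction (-0.84). The Clps level was 7.68 on wild-type IIAEK replicate 3, where exocrine pancreas markers were also high. It was 4.71 and 4.40 on the other arrays of that group. For IIAEK in the knockout 24 of 30 lay above 0, with a median of 0.24 against 0.0060 for all genes. 9 had an unadjusted p below 0.05 and were higher, and 0 were called. The 4 with the smallest p were Wnt3 (0.62), the Wnt ligand that Paneth cells supply to stem cells, Spink4 (0.81), a protease inhibitor family member of secretory cells, Ang6 (1.16) and Ang (1.04), each with an adjusted p of 0.910 in limma. Spink4 was at 6.83, 7.34 and 7.56 in knockout IIAEK, against 6.68, 6.52 and 6.11 in knockout vehicle, and Wnt3 was at -3.14, -3.51 and -3.15 against -3.78, -3.69 and -4.20. In both genes every knockout IIAEK array lies above every knockout vehicle array. In wild type 22 of the 30 lay below 0 on IIAEK, with a median of -0.19. The interaction was above 0 for 26 of 30, with a median of 0.34. The mean deviation of the wider list was 0.0032, 0.024 and 0.53 on the knockout IIAEK arrays. On the knockout vehicle arrays it was -0.026, -0.099 and -0.45, so the size of the knockout difference rested mostly on the replicate 3 arrays.

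Genes that control Paneth cell fate, secretion and autophagy had medians close to 0 as a list, though single genes lay away from it. The autophagy gene Atg5 was the highest for IIAEK in the knockout (0.35) and for the interaction (0.70). The transcription factor Sox9 was the lowest for IIAEK in wild type (-0.54). The zymogen granule factor Bhlha15 was at -0.59 for knockout against wild type on IIAEK. All 29 listed were tested. For IIAEK in the knockout their median was 0.030, with 16 above 0 and 13 below, and 0 had an unadjusted p below 0.05. The lowest p belonged to Lrrk2, a kinase involved in lysozyme sorting in mouse Paneth cells, at -0.60 (adjusted p = 0.910 in limma). The interaction had a median of 0.0056 with 15 above 0. In wild type on IIAEK the median was 0.11.

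Markers of other cell types also differed between the groups. Of 10 goblet cell markers, all tested, 7 lay above 0 for IIAEK in the knockout with a median of 0.14. Their summed linear level, in multiples of the 75th percentile, was 1149 to 1154 in knockout IIAEK and 898 to 1096 in knockout vehicle. Agr2 (0.43), Ccl6 (0.76), Ccl9 (0.66) and Spink4, which is on both lists, had an unadjusted p below 0.05, while Muc2, the main mucin gene, differed by -0.097 and Tff3 by 0.073. Of 10 B and plasma cell markers, 8 lay below 0 in that comparison with a median of -2.60, and 0 were called. Their mean deviation was -1.34, -0.88 and -1.46 on the knockout IIAEK arrays, against 1.15, 1.54 and 0.98 on the knockout vehicle arrays. The B cell marker Ms4a1 was lower by more than the list's median (-5.17), and the plasma cell gene Jchain differed by -0.038. The list's summed level was 129 to 243 in knockout IIAEK and 135 to 219 in knockout vehicle. That sum mostly reads Jchain, at 7.32, 7.89 and 6.96 on the knockout IIAEK arrays, and so does not show the lower B cell markers. Of 8 tuft cell markers 6 were tested, and 6 of 6 lay below 0 for IIAEK in the knockout, with a median of -0.42 and a summed level of 1.71 to 3.07 in knockout IIAEK and 2.78 to 3.50 in knockout vehicle. Their interaction was below 0 in 6 of 6 with a median of -0.70, and Alox5ap (-1.14) and Avil (-1.11) had an unadjusted p below 0.05. Of the tuft cell markers, 0 were called after adjustment. The share of all genes with a negative interaction at that unadjusted p is not given here. Their part in the differences of the Paneth genes was not tested.

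In wild type, 8 of 8 smooth muscle markers lay higher on IIAEK, with a median of 0.89 and a summed level of 68.8 to 117 on IIAEK and 39.6 to 64.1 on vehicle. Enterocyte markers lay lower in 9 of 10, with a median of -0.25. Goblet cell markers lay lower in 8 of 10, with a median of -0.22, where that of the 7 Paneth genes was -0.27, and a summed level of 931 to 1096 on IIAEK and 1063 to 1250 on vehicle. B and plasma cell markers lay higher in 8 of 10, with a median of 1.01, but their arrays were mixed within both wild-type groups. Their mean deviation was -0.99, 1.62 and 0.89 on IIAEK, against -1.24, -1.53 and 1.27 on vehicle.

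Exocrine pancreas markers, 14 of 15 tested, were high on single arrays. They summed to 2623 on wild-type IIAEK replicate 3, against 7.73 and 23.0 on the other 2 arrays of that group, and to 202 on knockout vehicle replicate 3, against 6.03 and 7.74. Knockout vehicle replicate 3 is also the array with the lowest mean deviation of the 7 Paneth genes. Wild-type IIAEK replicate 3, with the larger sum, had a mean deviation of -0.33 in the 7 genes. The other 2 arrays of its group were at -0.08 and -0.35. A link between pancreas signal and the Paneth genes was not tested. The sums were 5.86 to 9.42 on knockout IIAEK and 9.61 to 27.1 on wild-type vehicle.

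Marker lists also stood away from 0 in the genotype comparisons. On IIAEK, knockout minus wild type was above 0 for 10 of 10 goblet cell markers (median 0.20), below 0 for 14 of 14 pancreas markers (median -4.42) and below 0 for 8 of 10 B and plasma cell markers (median -1.71). On vehicle, it was above 0 for 8 of 8 smooth muscle markers (median 0.72) and for 8 of 10 B and plasma cell markers (median 1.89), and below 0 for 7 of 10 goblet cell markers (median -0.23). For the B and plasma cell list, the mixed wild-type arrays overlapped the knockout arrays in both comparisons. The part of these lists in the differences of the Paneth genes was not tested either.

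**Figure D4:**
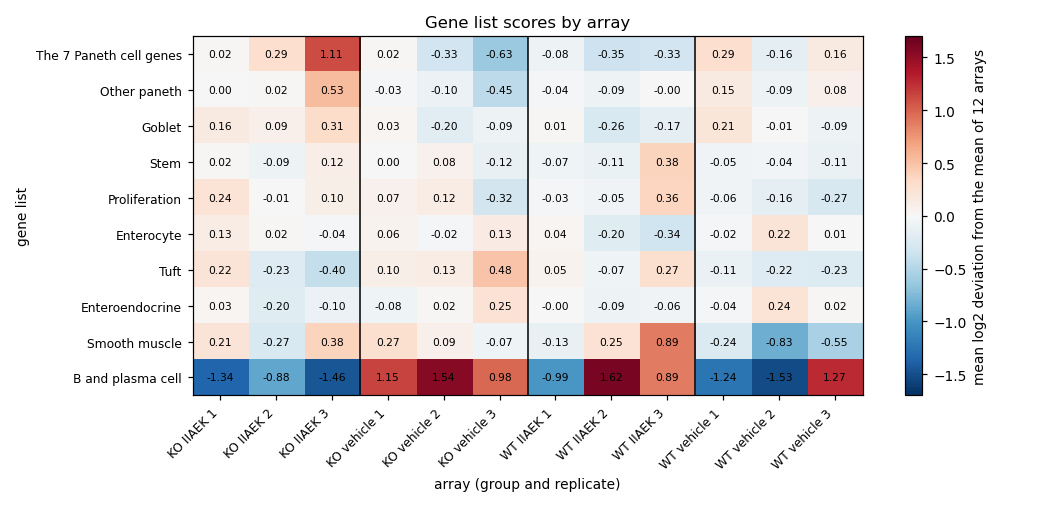
Mean log2 deviation from the 12-array mean for the 7 Paneth cell genes and for 9 marker lists (rows), on each array (columns). The 7 genes and the other Paneth list are both highest on knockout IIAEK replicate 3 (1.11 and 0.53) and lowest on knockout vehicle replicate 3 (-0.63 and -0.45). On these arrays, in that order, the goblet list is at 0.31, its highest value, and -0.09. Smooth muscle is at 0.38 and -0.07, proliferation at 0.10 and -0.32, and stem at 0.12 and -0.12. Enterocyte is at -0.04 and 0.13, tuft at -0.40 and 0.48, enteroendocrine at -0.10 and 0.25, and B and plasma cell at -1.46 and 0.98.

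The genes whose level went most like the mean deviation of the 7 members over the 12 arrays, among 15805 other named genes tested, were Farsa (r = 0.941), Ang (0.937), Ang2 (0.931), Spink4 (0.928), Zdhhc20 (0.924), Hoxb7 (0.924), Ang6 (0.924), Bambi (0.916, a pseudoreceptor of TGF-beta signalling), Defa39 (0.913) and the defensin pseudogene Defa-ps1 (0.910). 5 of these 10 are on the wider Paneth list. Farsa, which encodes a phenylalanyl-tRNA synthetase subunit, kept r = 0.844 over the 10 arrays other than the 2 that stood apart, and Spink4 kept r = 0.868, the highest of the 10. Some of these are paralogues of members, and the arrays share groups and slides, so the order is a description.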

How the data were processed

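RNA of the jejunum was labelled with Cy3 and hybridised to Agilent 8x60K mouse arrays, per the labels. Per the file headers, Feature Extraction 10.7.3.1 made each deposited processed signal, an intensity from which background was subtracted, with no scaling between arrays. A deposited table of log2 values correlated at 0.9997 or more with the levels used here on every array; how the authors scaled and centred it is not stated. Here, non-uniform outlier spots (at most 4 an array) were dropped, replicate spots were averaged as log2 processed signal, and each array was set relative to its own 75th percentile. RefSeq accessions named 32994 of 56605 probes, and the brightest probe represented a symbol. Testing required a signal well above background on the 3 arrays of some group.

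limma 3.58.1 in R 4.3.3 fitted the 4 group means over 12 arrays, with two-sided tests, Benjamini-Hochberg adjustment over all genes tested and a threshold of 0.05. P-values measure the spread between these arrays, whose small number limits the precision. The script was tested on simulated data. The 7 genes, the gene lists, the motifs and the rule for named genes (the 7, up to 4 genes of smallest p a list, and the 10 most like the members' mean deviation) were chosen with earlier results of these data known. Agr2, Ccl6, Ccl9, Muc2, Tff3, Ms4a1, Jchain, Sox9, Alox5ap, Avil, Clps and the paralogue probes were named after their values were seen. The planned background alternative needed mean spot signals, which the files used here do not hold, so median signals served. Same-numbered samples of 2 groups had deviations correlated at r over 0.1 in 8 of 18 pairs, with r from -0.25 to 0.35, so the numbers were not taken to pair samples. Coordinates are those of the promoter windows, on GRCm38.p6, and none from the array design are used. Alternatives tried are given in the closing section.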

Additional observations from a re-analysis of the deposited data

Results flagged for a closer look

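Lyz1 had an interaction of 0.52 (log2, SE 0.19). It is given here because its response to IIAEK went in opposite directions in the 2 genotypes on every array: the 3 knockout IIAEK arrays (7.83 to 8.19) lay above the 3 knockout vehicle arrays (7.72 to 7.77), and the 3 wild-type IIAEK arrays (7.64 to 7.83) lay below the 3 wild-type vehicle arrays (7.93 to 8.16). In limma the interaction had an adjusted p of 0.311, so it did not pass over all genes, and its adjusted p over the alternatives was between 0.156 and 0.604. The same pattern without overlap was found in 294 of 27565 genes, 1.07%.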

How the results depend on the processing

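No member passed under any alternative run, where limma's adjusted p was between 0.113 and 0.999983. Of the members' values under the alternatives, 947 of 1001 kept their direction, 54 changed sign, most of them Defa24 or averages near 0, and 22 of 143 counts of called genes and 2 of 143 medians of the 7 genes moved. The replicate block left the members' median for IIAEK in the knockout at 0.91 and changed no call.

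Leaving out each array in turn, the median for IIAEK was between 0.49 and 1.23 in the knockout, -0.34 and -0.14 in wild type, 0.67 and 1.40 for the interaction and 0.097 and 0.41 averaged over genotypes. For knockout against wild type it was between -0.55 and -0.080 on vehicle, 0.33 and 0.99 on IIAEK and -0.024 and 0.25 averaged. Genes called were between 0 and 1 for IIAEK in wild type, 0 and 2 for genotype on vehicle, 0 and 2 on IIAEK, 0 and 10 (without knockout vehicle replicate 1) averaged, and 0 and 1 for IIAEK averaged. Members that changed sign were Mptx2 (-0.70 to 0.045) for IIAEK in wild type, Defa24 for genotype on vehicle (-0.043 to 0.090), on IIAEK (-0.053 to 0.078), averaged (-0.024 to 0.050) and for the interaction (-0.079 to 0.073), and, averaged, Mptx2 (-0.20 to 0.25), Itln1 (-0.070 to 0.17) and Lyz1 (-0.063 to 0.028) for genotype, with Defa21 (-0.15 to 0.41) and Lyz1 (-0.057 to 0.034) for IIAEK.

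Without both arrays that stood apart, an alternative chosen after seeing the data, the medians were 0.21 (IIAEK in the knockout) and 0.41 (interaction), with 0 genes called for genotype averaged and 1 for IIAEK averaged. Itln1 was then at -0.045 for IIAEK averaged, and Defa24 at -0.043, -0.053, -0.00954 and -0.048 for genotype on vehicle, on IIAEK, the interaction and genotype averaged. Under normexp, genotype averaged had 2 genes called, Defa24 was at -0.00449 on vehicle, -0.000471 on IIAEK and -0.00248 averaged, and Lyz1 at 0.000465 for IIAEK averaged. Under quantile normalization, 4 genes were called for genotype averaged, Defa24 was at 0.038 for IIAEK in wild type, -0.058 for genotype on IIAEK, -0.11 for the interaction and -0.00148 averaged, Mptx2 at -0.000500 for genotype averaged and Lyz1 at 0.00139 for IIAEK averaged. The mean over probes gave 2 genes for genotype averaged. Fitting only the groups compared called 14 genes for IIAEK in the knockout, 1 for genotype on vehicle and 4 on IIAEK. With the slide block, 1 gene was called for IIAEK in wild type and 1 for genotype on IIAEK, and for genotype averaged Mptx2 was at -0.063, Itln1 at -0.082 and Lyz1 at 0.015. In the deposited table Lyz1 was at 0.00429 for IIAEK averaged. The causes were not tested.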
